A study of Mus musculus with 8 samples.

Results

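Imprinted growth regulators, 9 in number, were followed in RNA from injured mouse muscle: the long noncoding RNAs H19 and Meg3, and the protein-coding genes Dlk1, Peg3, Mest, Ndn, Grb10, Plagl1 and Cdkn1c. They were taken by name, so that every table row whose gene name, without a final dot and number, matched one of these names was kept. This gave 24 rows of 9 genes, out of 36743 rows of 16573 genes. The muscles were tibialis anterior with extensor digitorum longus, injured with notexin, a venom phospholipase that destroys muscle fibres, at 2 mg/mL and collected 3 days later. Both groups received the injury. One is labelled Ctrl and the other Psat1iKO, after the gene for phosphoserine aminotransferase of serine synthesis, with 4 libraries each. The strain, age and sex of the mice, the driver of the deletion and the exons removed were not given in the sources used here. The labels name sorted muscle stem cells, whereas the series' design text describes RNA from the muscles. The levels below may therefore be those of sorted cells and not of whole injured muscle, and counts of cell type markers are given for this reason. No label states that each library is a different mouse, and p-values then reflect only library-to-library spread, which may be technical.

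An imprinted gene is transcribed mainly from the copy inherited from 1 parent, because DNA methylation set in the germ line differs between the maternal and the paternal copy. H19, Meg3, Cdkn1c and, outside the brain, Grb10 are expressed mainly from the maternal copy, and Dlk1, Peg3, Mest, Ndn and Plagl1 from the paternal copy. Many imprinted genes are abundant in the embryo and are switched down after birth, and some of them come back in muscle that regenerates. The data give no allele, so the parental origin of the transcripts was not measured.

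H19, Mest and Meg3 also carry microRNAs, short RNAs that guide repression of messenger RNAs through their seed. The mature sequences are shown because a host transcript is the precursor, or the intron source, of these products. They come from RefSeq (GRCm38.p6), and the seed, bases 2 to 8, is in capitals.
mmu-miR-675-5p: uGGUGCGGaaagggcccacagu
mmu-miR-675-3p: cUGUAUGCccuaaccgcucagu
mmu-miR-335-5p: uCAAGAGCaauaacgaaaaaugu
mmu-miR-335-3p: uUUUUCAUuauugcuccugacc
mmu-miR-770-5p: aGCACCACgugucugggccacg
mmu-miR-770-3p: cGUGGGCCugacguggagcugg
mmu-miR-1906: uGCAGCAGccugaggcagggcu

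The 2 miR-675 arms lie in an exon of H19 on chromosome 7, at chr7:142577112-142577133 and chr7:142577078-142577099 on the minus strand. The miR-335 arms lie in an intron of Mest on chromosome 6, at chr6:30741314-30741336 and chr6:30741354-30741375 on the plus strand. The miR-770 arms and miR-1906 lie in annotated exons of Meg3 on chromosome 12, the first at chr12:109563710-109563731 and the last at chr12:109544588-109544609 on the plus strand. No 2 of the 7 share a seed. The libraries were made from poly(A) RNA, in which mature microRNAs are not captured, so only their hosts have values here.

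The 250 bases before annotated starts were read for 3 motifs on both strands, and 11 windows of 7 members were found among 32851 windows. H19 and Cdkn1c have no entry in the table used. The hexamer TGCCGC that ZFP57 recognises occurred in 4 windows of 3 genes (Mest, Plagl1 and Meg3), and in 8.68% of all windows. Of the 4, 2 are Mest windows that overlap almost fully, at chr6:30737800-30738049 and chr6:30737803-30738052. They hold the same 2 matches, so the count of windows counts these matches more than once. The PLAGL1 octamer GGGGCCCC occurred in 1 window, that of Peg3, and in 0.889% of all. The E-box CAGCTG, a site type of MYOD, occurred in 1 window of Mest and in 13% of all. The median number of CpG pairs was 8 in the member windows, ranging from 0 at the downstream start of Meg3 to 40 at the upstream start of Grb10, and 6 over all windows. A match is a string of letters and not a measured site.

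The 4 windows shown hold the hexamer or the octamer, and were chosen because the genes for both factors, Zfp57 and Plagl1, were themselves measured. Each is RefSeq sequence of GRCm38.p6, 5′ to 3′ on the gene's strand, with the hexamer or octamer in capitals on either strand. The Mest window is chr6:30737800-30738049 on the plus strand, that of Meg3 chr12:109540746-109540995 plus, that of Plagl1 chr10:13090582-13090831 plus and that of Peg3 chr7:6730420-6730669 minus.
Mest: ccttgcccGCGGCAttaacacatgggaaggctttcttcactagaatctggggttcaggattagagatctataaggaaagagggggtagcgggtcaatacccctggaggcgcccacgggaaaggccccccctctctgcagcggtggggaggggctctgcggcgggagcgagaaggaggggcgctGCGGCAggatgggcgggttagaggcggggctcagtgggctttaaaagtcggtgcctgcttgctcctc
Meg3: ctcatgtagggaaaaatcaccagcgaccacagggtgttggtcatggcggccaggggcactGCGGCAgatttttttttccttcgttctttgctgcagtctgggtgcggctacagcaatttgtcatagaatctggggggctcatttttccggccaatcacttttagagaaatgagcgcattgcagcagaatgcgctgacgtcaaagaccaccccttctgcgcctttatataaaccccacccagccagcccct
Plagl1: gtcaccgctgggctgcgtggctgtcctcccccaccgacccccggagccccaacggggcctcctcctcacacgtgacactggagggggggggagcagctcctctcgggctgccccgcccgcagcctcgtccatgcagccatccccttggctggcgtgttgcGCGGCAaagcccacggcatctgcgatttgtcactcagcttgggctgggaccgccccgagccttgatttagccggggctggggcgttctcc
Peg3: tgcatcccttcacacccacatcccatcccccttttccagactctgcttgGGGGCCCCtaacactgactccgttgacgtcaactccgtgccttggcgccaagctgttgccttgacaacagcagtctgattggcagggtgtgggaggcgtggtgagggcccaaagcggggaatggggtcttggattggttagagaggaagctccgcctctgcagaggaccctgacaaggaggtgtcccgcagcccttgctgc

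The authors' deposited table holds for each row a mean of normalized counts over the 8 libraries and a log2 fold change with SE, and no value per library was analysed here. The spread over samples therefore cannot be shown sample by sample, and depth per library is unknown. The mean of each group, solved from the row mean and its fold change, is called the fitted mean, and a leading row is that of highest mean among the rows of its gene. The standard error was also turned into an approximate coefficient of variation between libraries, called here the implied spread. In the authors' deposited table the Psat1 row Psat1.1 stood at -0.49 ± 0.0675 (SE, log2, Psat1iKO minus Ctrl; DESeq2 adjusted p 1.22e-09). Muscle stem cell and myoblast markers had a median mean count of 8192 over 12 genes, against 58.0 for 9 fibro-adipogenic and fibroblast markers, 90.8 for 8 macrophage markers and 11.3 for 8 endothelial markers. It was 1280 for 9 myofibre, 447 for 10 pericyte and smooth muscle, 324 for 6 tenocyte and 15.4 for 5 Schwann cell markers. Myofibre markers thus had the second highest median, with summed fitted means of 15428 in Ctrl and 13290 in Psat1iKO. Of the macrophage markers, 8 of 8 measured lay below 0, with a median log2 fold change of -1.96 and 0 called (2 at an unadjusted p under 0.05). Their summed fitted means were 3307 in Ctrl and 744 in Psat1iKO, and Csf1r and C1qa are not among the listed rows. Endothelial markers lay below 0 in 7 of 8 cases, with a median of -0.91, 0 called and summed fitted means of 270 in Ctrl and 235 in Psat1iKO. Of the pericyte and smooth muscle markers 6 lay above 0 and 4 below, with a median of 0.21 and summed fitted means of 58995 and 59240. Most of these sums was Des, with 48317 in Ctrl and 46611 in Psat1iKO, which is also counted among the muscle stem cell and myoblast markers. The sums therefore say little about the other pericyte and smooth muscle markers. Among these the minor row Myh11.2 was called, at 4.80 ± 1.33 on a mean of 52.6 in the authors' deposited table (adjusted p 0.0466 by DESeq2). Rgs5.1 had 1.04 ± 0.352 (unadjusted DESeq2 p 0.00327, adjusted p 0.211). The part of these cell types in the members' values was not tested. In bulk RNA, fewer cells of a type and less RNA per cell cannot be told apart.

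Levels between genes were compared per kilobase of the longest RefSeq-linked GENCODE transcript, on the sum of a gene's rows. H19 was the most abundant member, with 10082 mean normalized counts per kilobase, at the 98.4th percentile of 15255 genes with a length. Mest, which encodes a hydrolase-like protein of the endoplasmic reticulum, followed with 7205 per kilobase. Cdkn1c, encoding the cyclin-dependent kinase inhibitor p57, had 4776 per kilobase, and Grb10, an adaptor that restrains insulin and IGF1 receptor signalling, had 3161. These 4 genes lay between the 94.4th and the 98.4th percentile.

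Peg3, a zinc finger protein known in muscle as Pw1, had 1004 per kilobase and stood at the 82.4th percentile. The zinc finger factor Plagl1 with 141 per kilobase and Ndn, encoding the MAGE family protein necdin, with 122 lay near the middle of all genes. Meg3 had 8.85 per kilobase and Dlk1, a transmembrane relative of Notch ligands, 4.57, the latter at percentile 13.2. The 2 neighbours of the chromosome 12 domain were thus the lowest of the 9, and the most abundant member stood more than 3 orders of magnitude above them. Plagl1 and Ndn differed by a ratio of 1.15, which is within their implied spread of 15.6% and 25.0%, and they changed places when the length of all exons was used and in the fitted means of Ctrl. The other neighbours in the order differed beyond a limit for means of 8 libraries, built from the implied spreads of their leading rows. As natural logs, Mest over Cdkn1c was 0.411 against a limit of 0.291, and Meg3 over Dlk1 was 0.660 against 0.485. Whether these pairs also differ beyond the spread between single libraries was not tested. The order of these other neighbours was the same with either length and in the fitted means of both groups.

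**Figure D1:**
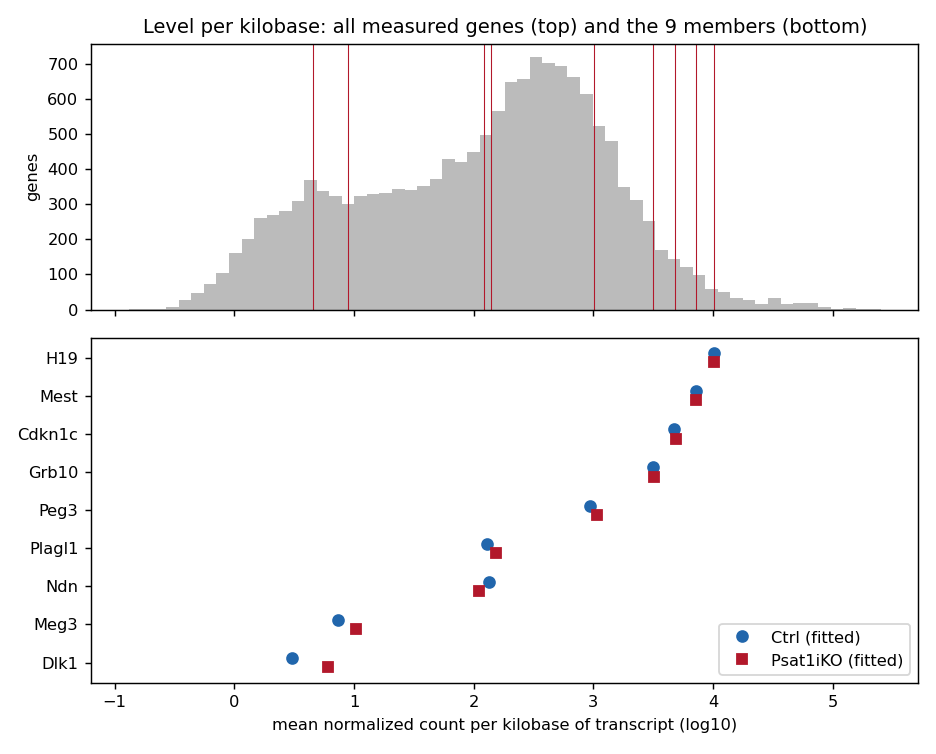
Level per kilobase of transcript. The top panel is a histogram of log10 mean normalized counts per kilobase for all genes with a length, with a red line for each member. The bottom panel gives the fitted mean of each member in Ctrl (circles) and Psat1iKO (squares). The 4 most abundant members lie in the upper tail, Meg3 and Dlk1 lie at the low end, and the symbols of the 2 groups nearly coincide for H19, Mest, Cdkn1c and Grb10.

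In the comparison of the genotypes, none of the 24 member rows was called at a DESeq2 adjusted p under 0.05 in the authors' deposited table (0 of 24), where 0.656% of all rows were called. Among the 9 leading rows 0 were called, against 0.338% of all leading rows, and 0 had an unadjusted p under 0.05, against 4.09% of all leading rows. With shares this low among all rows, 0 of 24 is near the background and is no result about imprinted genes. Of the leading rows, 8 lay above 0 and 1 below, with a median log2 fold change of 0.04 beside -0.01 for all leading rows. What the data do give is the size of difference that remains possible for each gene. The 95% interval of the leading row lay inside a 2-fold change for 7 of the 9 genes and reached beyond it for Meg3 and Dlk1. Among all leading rows whose mean reached 100, 92.6% had such an interval.

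H19 (chromosome 7, 142575529 to 142578143, minus strand, GRCm38) is an RNA of embryonic tissue and muscle whose domain also holds Igf2. Its leading row, H19, had a mean normalized count of 22318, and the fitted means were 22216 in Ctrl and 22419 in Psat1iKO. The log2 fold change was 0.01 ± 0.139 in the authors' deposited table (95% interval -0.26 to 0.28). The minor row H19.1 held 3.16% of the gene's counts and had -0.42 ± 0.377 in the authors' deposited table. The sum of both rows was 23049 in Ctrl and 23044 in Psat1iKO.

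Meg3 (chromosome 12, 109541001 to 109571726, plus strand), the maternally expressed RNA of the Dlk1 domain, was low in all 3 rows. The leading row Meg3.2 had fitted means of 66.3 in Ctrl and 96.7 in Psat1iKO, and a log2 fold change, per the authors' deposited table, of 0.54 ± 0.404 (unadjusted p = 0.178 by the DESeq2 Wald test). The rows Meg3 and Meg3.1 had 0.36 ± 0.447 and 0.82 ± 1.13 in the authors' deposited table. All 3 rows lay above 0, but each interval held 0, and that of Meg3.2 ran from -0.25 to 1.34.

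Dlk1 (chromosome 12, 109452823 to 109463336, plus strand) was near the floor of the table, whose lowest listed mean is 2.22. Its listed rows were Dlk1.6 with a mean of 16.8 and Dlk1.5 with 4.43. The fitted means of Dlk1.6 were 11.1 in Ctrl and 22.6 in Psat1iKO, with a log2 fold change, per the authors' deposited table, of 1.02 ± 0.588 (unadjusted DESeq2 p = 0.0818, adjusted p = 0.959). The interval from -0.13 to 2.18 held both no change and a 4-fold change, so a difference was not detectable at this level of counts. Names with lower numbers, such as Dlk1.4, are not among the listed rows.

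Peg3 (chromosome 7, 6703892 to 6730431, minus strand) was split over 2 rows of nearly equal size. Peg3.3 held 49.8% of the gene's counts and Peg3.2 held 46.0%, with log2 fold changes of 0.20 ± 0.198 and 0.19 ± 0.223 in the authors' deposited table. Summed over the 4 rows, fitted means were 8095 in Ctrl and 9356 in Psat1iKO. The interval of Peg3.3 ran from -0.19 to 0.59, so both no change and a rise of less than 2-fold lay within it.

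Mest (chromosome 6, 30723547 to 30748465, plus strand) had nearly equal fitted means in its leading row. Mest.2 held 96.1% of the gene's counts, with fitted means of 18403 in Ctrl and 18481 in Psat1iKO and a log2 fold change, per the authors' deposited table, of 0.01 ± 0.149. The row named Mest held 3.89% and had 0.28 ± 0.228 in the authors' deposited table. The third row, Mest.1, had a mean of 11.6, which is 0.0605% of the gene. Its log2 fold change, per the authors' deposited table, of -7.06 ± 3.15 had an unadjusted DESeq2 p of 0.025 and an adjusted p of 0.627. It was the 1 row of the 24 with an unadjusted p under 0.05, where 6.04% of all rows had one. Its fitted means were 23.1 in Ctrl and 0.172 in Psat1iKO, and its interval spanned -13.24 to -0.89, so its size is loosely set.

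Ndn (chromosome 7, 62346569 to 62350262, plus strand), known to favour the differentiation of myoblasts, was the 1 member whose leading row lay below 0. Its single row had fitted means of 499.6 in Ctrl and 405 in Psat1iKO and a log2 fold change, per the authors' deposited table, of -0.30 ± 0.255 (interval -0.80 to 0.20). Plagl1 (chromosome 10, 13060504 to 13131694, plus strand) also had a single row, with fitted means of 679 and 801. Its log2 fold change was 0.24 ± 0.159 in the authors' deposited table, with an interval from -0.07 to 0.55. Both intervals held 0, and neither row was called.

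Grb10 (chromosome 11, 11930508 to 12038683, minus strand) had the narrowest interval of the members. Its leading row Grb10.1, with 84.1% of the gene's counts, had fitted means of 13329 in Ctrl and 13594 in Psat1iKO. The log2 fold change was 0.03 ± 0.0846 in the authors' deposited table, with an interval from -0.14 to 0.19. The row Grb10.2 had -0.03 ± 0.334 in the authors' deposited table.

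Cdkn1c (chromosome 7, 143458339 to 143461050, minus strand), whose product stops the cell cycle in differentiating myoblasts, was spread over 6 rows. Cdkn1c.1 held 48.0% of the gene's counts, with fitted means of 4293 in Ctrl and 4422 in Psat1iKO and a log2 fold change, per the authors' deposited table, of 0.04 ± 0.402. Cdkn1c.5 held 20.9% and had 0.11 ± 0.479, and Cdkn1c held 18.5% and had 0.02 ± 0.523, both in the authors' deposited table. The row nearest to a difference was Cdkn1c.3, with 2.93% of the counts, at 0.55 ± 0.299 in the authors' deposited table (unadjusted DESeq2 p = 0.0664, adjusted p = 0.898). Summed fitted means were 8863 in Ctrl and 9296 in Psat1iKO, and 0 of the 6 rows lay below 0.

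**Figure D2:**
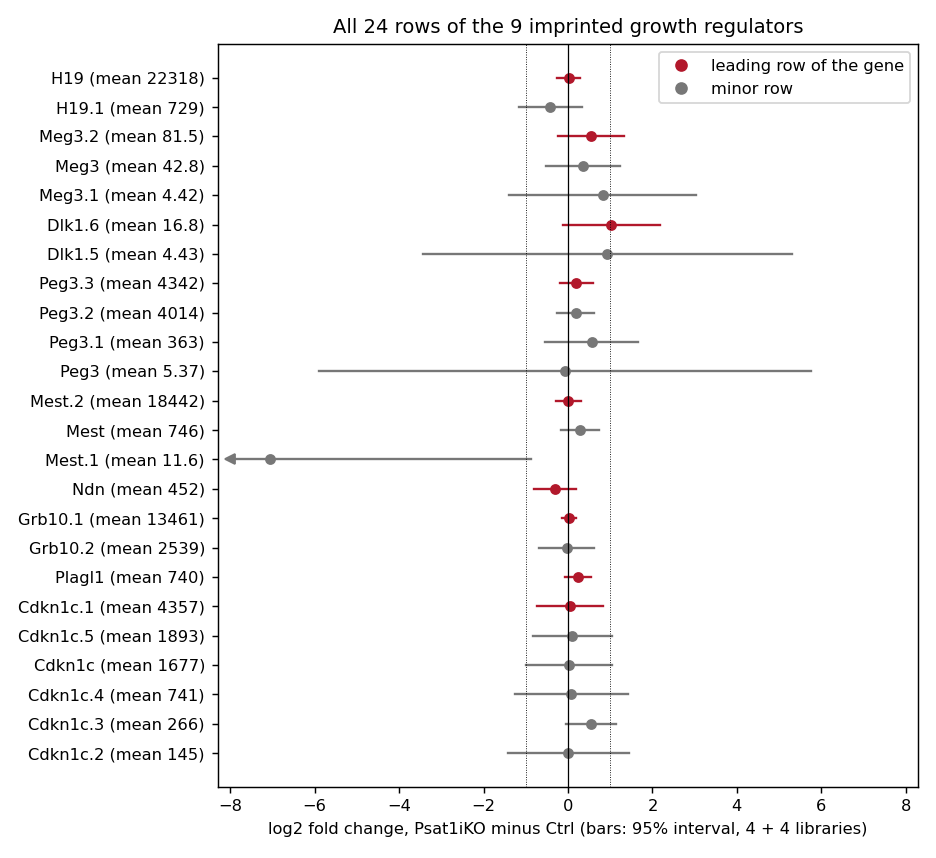
Log2 fold change of Psat1iKO minus Ctrl for all 24 member rows, with 95% intervals from the deposited standard errors and the mean count of each row in its label. Leading rows are red, minor rows grey, dotted lines mark a 2-fold change, and an arrow marks an interval that leaves the axis. The leading rows of H19, Mest and Grb10 sit at 0 with narrow intervals, and Mest.1 is the 1 row whose interval does not hold 0.

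The precision of these values did not follow abundance alone. Standard errors normally fall as counts rise, and the median implied spread of leading rows whose mean reached 100 was 11.1%. Cdkn1c.1 had an implied spread of 39.4%, and its standard error was larger than that of 99.7% of the leading rows with a mean within 1.5-fold of its own. The same percentile was 98.0 for Peg3.3, 97.0 for Mest.2, 96.4 for H19 and 86.2 for Grb10.1. It was 79.3 for Ndn and 68.2 for Plagl1, and near the middle for the low genes, at 57.3 for Meg3.2 and 41.1 for Dlk1.6. All 7 members with a mean of at least 100 thus lay above the 50th percentile, and 4 of them above the 95th.

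Genes with several rows were also compared among themselves. Against leading rows of genes with more than 1 row, the percentile of Cdkn1c.1 was 99.9 and that of H19 96.6. The lists that follow were set against all leading rows of like mean. The median percentile was 57.0 for 24 imprinted genes of other domains and 60.3 for 30 partner genes of the members. It was 72.4 for the 11 neighbours in the H19 and Cdkn1c domain and 69.6 for 22 factors that keep or read imprinted methylation. The marker lists of most cell types also lay high. The median percentile was 98.1 for 7 myofibre, 94.8 for 4 macrophage, 94.7 for 3 fibro-adipogenic and fibroblast, 89.7 for 7 pericyte and smooth muscle, 85.3 for 11 muscle stem cell and myoblast and 84.2 for 4 tenocyte markers. The 1 endothelial marker with a mean of at least 100 stood at 15.6. Myog, a factor of terminal muscle differentiation chosen here after its value was seen, had a standard error of 0.32 on a mean count of 14298 in the authors' deposited table, at the top of 378 leading rows of like mean. Whether the same libraries carried the spread of the members and of these lists was not tested, since that needs values per library.

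**Figure D3:**
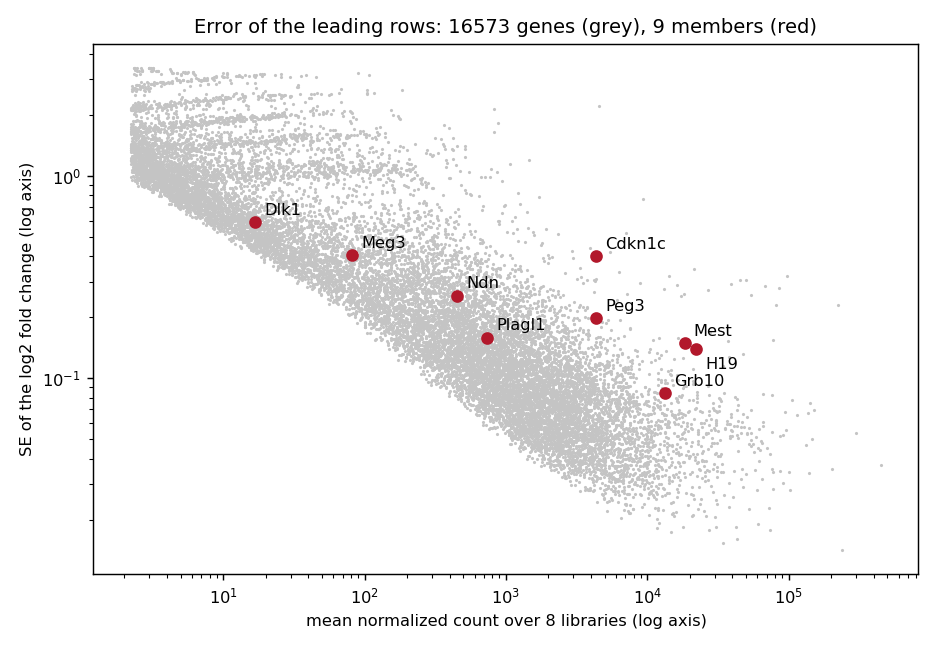
Standard error of the log2 fold change against mean normalized count for the leading rows of all 16573 genes (grey) and the 9 members (red), both axes logarithmic. Cdkn1c, Peg3, Mest and H19 lie at the upper edge of the cloud for their count, whereas Meg3 and Dlk1 lie within it.

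The genes next to the members were described next, since imprinted genes lie in clusters under shared control. Of 90 other imprinted genes or direct neighbours listed, 73 were measured, 53 of them with a mean of at least 100. Their leading rows split into 38 above 0 and 35 below, with a median log2 fold change of 0.01, and 0 were called. At an unadjusted p under 0.05 there were 2, which is 2.74% against the 4.09% of all leading rows. Of the 53, 51 had an interval inside a 2-fold change. A called row was found in 1 of the 73 genes, where 1.39% of all genes had one: Herc3.9, with 5.42% of the counts of the ubiquitin ligase gene Herc3, had 7.18 ± 1.41 in the authors' deposited table on a mean of 13.8 (adjusted p 0.000165 by DESeq2).

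In the domain of H19 and Cdkn1c at the end of chromosome 7, the growth factor gene Igf2 had fitted means of 465.6 in Ctrl and 496 in Psat1iKO in its leading row Igf2.4. Its log2 fold change was 0.09 ± 0.327 in the authors' deposited table, with an interval from -0.55 to 0.73. The row held 34.4% of the counts of Igf2. The noncoding RNA Kcnq1ot1, which silences its neighbours on the paternal copy, had 0.05 ± 0.199 in the authors' deposited table. The tetraspanin gene Cd81 had 0.05 ± 0.0462 and Nap1l4, a histone chaperone gene, 0.04 ± 0.0601 in the authors' deposited table. Cars, Mrpl23, Osbpl5, Tnnt3, Tssc4, Lsp1 and Tnfrsf23 lay between -0.17 and 0.08 in the authors' deposited table. Phlda2 and Kcnq1 were close to the floor, with means of 3.12 and 11.6, and Ins2, Th, Ascl2, Trpm5 and Slc22a18 are not among the listed rows.

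In the Dlk1 and Meg3 domain, the maternally expressed RNA Rian had 0.18 ± 0.34 on a mean of 219 and Mirg 0.75 ± 0.805 on a mean of 8.91 in the authors' deposited table. With the 3 rows of Meg3, each of these RNAs lay above 0 and none was called. Their annotated order on the plus strand follows that of Meg3, and whether they are parts of 1 transcript cannot be read from these rows. Farther out, Wars had -0.06 ± 0.0583, Ppp2r5c 0.10 ± 0.0757 and Wdr25 1.39 ± 1.62 on a mean of 47.6, each from the authors' deposited table. Rtl1, Dio3 and Begain are not among the listed rows. In the Peg3 domain, Zim1 had 0.13 ± 0.251 in the authors' deposited table, Usp29 had 0.77 ± 1.17 on a mean of 28.4, and the antisense RNA Peg3os had 0.06 ± 0.393, all from the same table. Zfp773 had 0.74 in the authors' deposited table on a mean of 4.48.

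Near Mest, Cep41, a gene for a centrosomal protein, had fitted means of 225 in Ctrl and 342 in Psat1iKO in its leading row. That row held 45.8% of the gene's counts. The log2 fold change of this row, per the authors' deposited table, was 0.60 ± 0.269. It had an unadjusted DESeq2 p of 0.0248 and an adjusted p of 0.625, so it was not called. The next largest row, Cep41.4, with a mean of 206, went the other way at -0.27 ± 0.329. The remaining rows, with means of at most 34.2, lay on both sides of 0. Copg2, which overlaps Mest by 912 exonic bases on the opposite strand, had -0.08 ± 0.0822 in the authors' deposited table. The strand setting of the counting is not given in the sources used here, so reads of this stretch cannot be told apart. The same limit applies to Cdkn1c, which shares 625 exonic bases with Gm44732, and to Meg3, which shares 1228 with Gm26906. The carboxypeptidase gene Cpa4 had -0.04 ± 0.215 and Klf14 1.82 ± 0.956 on a mean of 3.56 in the authors' deposited table.

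In the Ndn domain, 5 of 6 measured genes lay below 0, as Ndn did, and 0 were called. Snrpn, a component gene of the spliceosome, had -0.27 ± 0.205 and the reading frame Snurf of the same transcript unit -0.30 ± 0.245 in the authors' deposited table. The ubiquitin ligase gene Ube3a had -0.12 ± 0.114, Atp10a -0.14 ± 0.0825, Mkrn3 -0.22 ± 0.269 and Peg12 0.07 ± 0.0788 in the authors' deposited table. Each of these intervals held 0. Beside Grb10, Cobl and Fignl1 had 0.02 ± 0.134 and -0.0017 ± 0.128 in the authors' deposited table, while Ddc and Ikzf1 had means of 3.03 and 2.32. Beside Plagl1, Phactr2 had 0.23 ± 0.244, Sf3b5 -0.02 ± 0.0417 and Ltv1 -0.05 ± 0.0581 in the authors' deposited table.

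**Figure D4:**
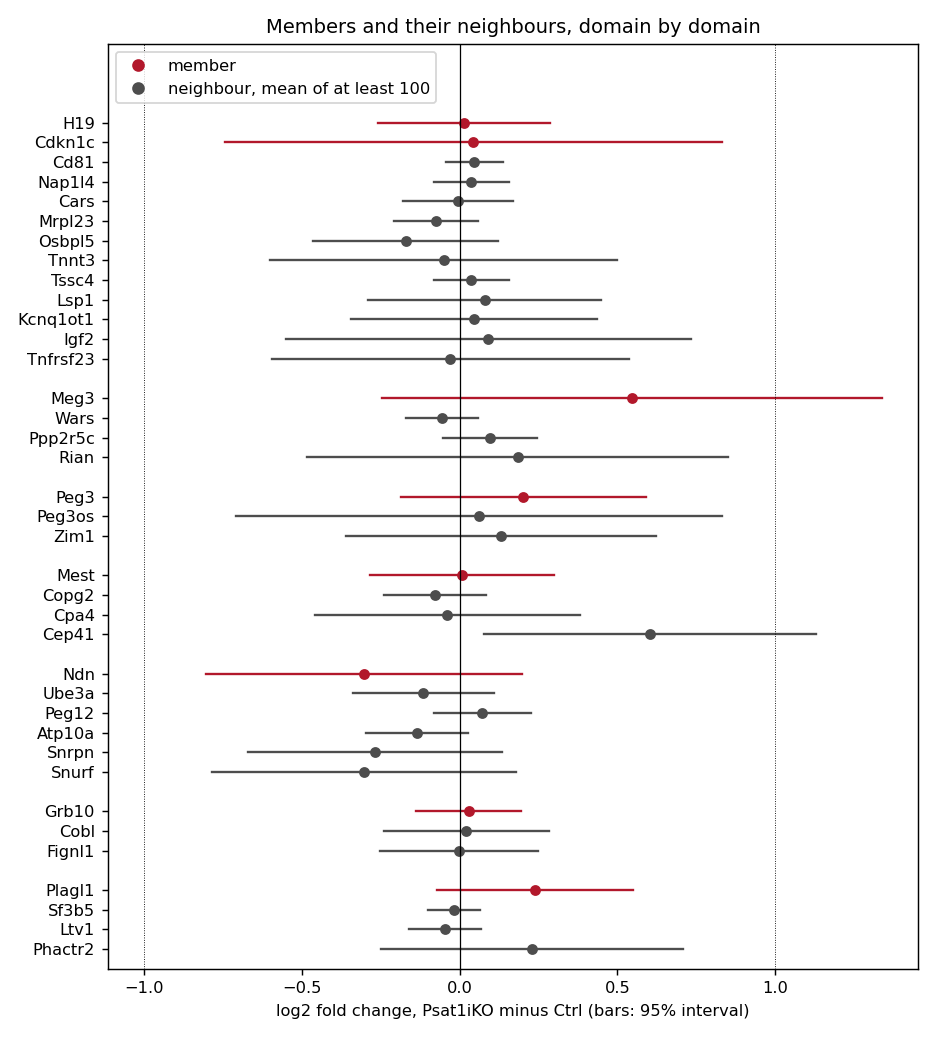
Log2 fold change of Psat1iKO minus Ctrl with 95% intervals for the leading rows of 8 members (red) and their neighbours with a mean of at least 100 (dark grey), grouped by domain; Dlk1 is not drawn. Dotted lines mark a 2-fold change. Cep41 is the 1 gene shown whose interval does not hold 0, and the intervals of Meg3 and Cep41 pass the 2-fold line.

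Factors that keep or read imprinted methylation were measured in 23 of 25 cases, with a median log2 fold change of 0.01 and 0 leading rows called. Trim28, the corepressor that zinc finger proteins bring to imprinted regions, had -0.01 ± 0.0437 and Uhrf1, which brings the maintenance methyltransferase to replicated DNA, -0.05 ± 0.0623 in the authors' deposited table. The leading row of that methyltransferase, Dnmt1, had 0.04 ± 0.0774 in the authors' deposited table. A minor row, Dnmt1.1, with 3.38% of the gene's counts, had -1.59 ± 0.336 in log2 fold change per the authors' deposited table (adjusted p 0.000896 by DESeq2), a fall from a fitted mean of 752 to 249. Zfp57, which binds a methylated hexamer at imprinted regions, had 0.01 ± 0.182 on a mean of 130.5, and the insulator factor Ctcf had 0.15 ± 0.0706 (unadjusted DESeq2 p = 0.0331, adjusted p = 0.699), both in the authors' deposited table.

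The authors' deposited lists of enriched terms name 27 genes for rows higher in Psat1iKO and 48 for rows lower, and 0 members are among either. By their titles, these lists were drawn from rows with an adjusted p under 0.05 and a 2-fold change. Because 0 member rows were called, no member could be in them, and their absence is no separate result.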

How the data were processed

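Poly(A) RNA was sequenced from 8 libraries, 4 labelled Ctrl and 4 labelled Psat1iKO. The authors used HISAT2 (2.2.1), build mm10 and DESeq2 (given as 4.2.0), by the submitters' processing notes. The counting program, its annotation, filters and strand setting were not given in the sources used here. The authors' deposited table gives per row a mean of normalized counts (a signal averaged over all libraries), a log2 fold change with its SE, a Wald score, a p-value and its adjusted p. Deposited log2 values are coded Ctrl over Psat1iKO and were turned to Psat1iKO minus Ctrl, which was checked on Eno1b (log2 fold change 6.24 after turning), a gene of the deposited list for higher rows. The deposited enrichment lists hold log10 p and q values by the authors, of which the gene names alone were used. Benjamini-Hochberg adjustment of the deposited p over 36743 rows gave the deposited adjusted p to within 1.39e-05.

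Rows are finer than genes and could not be matched to isoforms. The planned count test needs values per library, so the authors' adjusted p under 0.05 was used. Fitted means assume equal groups. The 95% interval is the fold change ± its SE times the normal quantile, and the implied spread is the SE as a natural log times the square root of the group size over 2. The implied spread and the adjustment were tested on simulated data, and the interval was not. Lengths and positions are from GENCODE vM21 (GRCm38, the same coordinates as mm10), where 15255 genes matched by symbol. Python 3.11.15 with pandas 2.3.3 was used. The members and lists were chosen with earlier results of these data known. Named genes are all member rows, the measured neighbours, and from other lists the called rows and some of the leading rows of smallest p. Marker lists are given mainly by counts. Other genes were named after their values were seen.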

Additional observations from a re-analysis of the deposited data

How the results depend on the processing

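No paired analysis was possible because the deposited table holds no values per library; leaving out each replicate, a count test and another normalization were not run for the same reason. The count of member rows called stayed at 0 with p adjusted over rows with a mean of at least 100, over leading rows only, at an adjusted p under 0.10 and with a 2-fold change required, and was 1 (Mest.1) at an unadjusted p under 0.05. The count of leading member rows called was 0 under each of these. Among the other imprinted genes, the count of genes with a called row was 1, and 0 with p adjusted over rows with a mean of at least 100 or over leading rows only, since Herc3.9 is neither. It was 10 of the 73 at an unadjusted p under 0.05, counting any of their 223 rows. The matching share over all genes was not computed, and genes with several rows pass more easily. The 10 is therefore no result about these genes. The median log2 fold change of the members ranged from 0.03 to 0.07, and no member moved by more than its SE with summed rows or centring. Low counts limit Meg3 and Dlk1.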

Other observations

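The partners through which the members act were mostly close to 0 in the comparison of the genotypes. Of 34 genes for ligands, receptors, cyclins and other partners, all were measured, 22 lay above 0 and 12 below, with a median log2 fold change of 0.02. Myod1, the myoblast factor that p57 protein is known to stabilise, was the 1 leading row called, against 0.338% of all leading rows, at 0.16 ± 0.0386 in the authors' deposited table (adjusted p 0.0058 by DESeq2). Cdk2 and Cdk4, kinases of the cell cycle that CIP/KIP inhibitors bind, had 0.01 ± 0.0632 and -0.01 ± 0.0282 in the authors' deposited table. The other inhibitors of that family, Cdkn1a and Cdkn1b, had -0.01 ± 0.0727 and 0.03 ± 0.0527 there in their leading rows. These errors were far smaller than the 0.402 of Cdkn1c.1, but the rows are unlike. Cdkn1a.1 and Cdkn1b held 99.7% and 100% of their genes' counts, on means of 32038 and 3164. Cdkn1c.1 held 48.0% on a mean of 4357.

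On the receptor side of Grb10, the insulin receptor gene Insr had 0.25 ± 0.126 (unadjusted DESeq2 p = 0.046, adjusted p = 0.802) and Igf1r -0.10 ± 0.203 in the authors' deposited table. Nedd4, a ubiquitin ligase that binds Grb10, had 0.00 ± 0.0318 and the Wnt coreceptor gene Lrp6 had 0.17 ± 0.0522 (adjusted p = 0.0979 by DESeq2) in the authors' deposited table. Igf2r, the receptor that clears IGF2, had 0.01 ± 0.104 in the authors' deposited table. A minor row, Traf2.2, with 0.635% of the counts of Traf2, an adaptor that PEG3 protein is known to bind, was called at -8.26 ± 1.26 in the authors' deposited table (adjusted p 7.32e-08 by DESeq2), while the leading row Traf2.1 had -0.08 ± 0.0721.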
